A study of Mus musculus with 23 samples.

Results

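Ndnf, Mab21l3, Fndc4, H6pd, U90926 and Cym are 6 of the 41073 genes counted in cultures of mouse lung epithelium with and without NTHi, which is non-typeable Haemophilus influenzae, a bacterium that colonises airways. They were chosen by their measured difference between NTHi-treated and untreated cultures and its evenness over experiments, in the same libraries described here. Their NTHi values are therefore given as a description with no test, and tests are kept for the stages of untreated culture. All cells were EpCAM-positive lung epithelial cells of wild-type C57BL/6 mice, labelled airway epithelial cells, and no group carried an engineered allele. They were grown in transwells with the upper face of the layer exposed to air. The 4 groups were freshly isolated cells (3 libraries, 1 in each of experiments A, B and C), cells on the day of airlift, when the upper face is first exposed to air (6 libraries), cultures at day 4 treated with NTHi (7 libraries), and untreated control cultures of the same day (7 libraries). The state and dose of the bacteria, the age of the mice and the number of animals were not stated in the labels, and nothing says that replicates came from separate mice or cultures, so p-values measure the spread between these libraries, which may be technical.

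The genes do not form one pathway. Ndnf encodes a secreted glycoprotein with fibronectin type III domains, first described as a neurotrophic factor of neurons. Fndc4 encodes a membrane protein of the irisin precursor family whose outer part is shed and, in mouse colitis, dampens macrophage activation. H6pd encodes hexose-6-phosphate dehydrogenase of the endoplasmic reticulum, which oxidises glucose-6-phosphate in the lumen and so supplies the NADPH used there by the glucocorticoid-activating enzyme Hsd11b1. Mab21l3 belongs to the Mab-21 family, which shares a fold with the DNA sensor cGAS. Cym encodes chymosin, the milk-clotting aspartic protease of the newborn stomach. U90926 has been described as a long non-coding RNA and is known from activated mouse macrophages. Bulk counts cannot tell fewer cells of a type from less RNA per cell.

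Libraries held 32323375 to 39081663 counts, and levels are CPM, counts relative to a library total scaled by TMM, which sets libraries against the bulk of genes. The TMM factors were 0.763 to 0.785 in fresh cells and 0.978 to 1.095 in the other groups, so values against fresh cells depend most on the scaling. The 6 epithelial markers, among them Epcam, Cdh1 and Nkx2-1, summed to 6988 to 7668 CPM in NTHi cultures, 5481 to 6551 CPM in day 4 controls, 5944 to 6983 CPM at airlift and 7684 to 8269 CPM in fresh cells, with none at 0. The 15 macrophage and monocyte markers summed to 2523 to 6221 CPM with NTHi and 5974 to 12720 CPM in controls, of which Lyz2, also made by alveolar type 2 cells, was the largest part. Of the 15, 10 were lower and 2 higher with NTHi (edgeR, adjusted p below 0.05), beside 20.4% and 20.1% of all genes. Against the sum, Cd14 averaged 1644 CPM with NTHi and 204.7 CPM in controls, and Adgre1 91.15 and 39.95 CPM. The 7 neutrophil markers summed to 0.588 to 5.44 CPM with NTHi and 2.10 to 4.21 CPM in controls. Of these, Cxcr2, Mpo and Elane had no count with NTHi, Mpo had none in controls, and Csf3r averaged 3.18 CPM with NTHi and 2.20 CPM in controls.

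Start-site sequences from RefSeq (GRCm38.p6) were at hand for 5 of the 6 genes, each covering 250 bases before and 50 after a start, and are shown to let the start regions of genes with NTHi differences be read side by side. The deposited counts were made on GRCm39, so these coordinates serve only to place the sequences. The H6pd entry lies 5787 bases inside the outer end of the gene, so it belongs to an inner start. Capitals mark matches, on either strand, to any of 6 motifs chosen with the results known: AP-1 (TGANTCA), C/EBP (TTGCNNAA), STAT (TTCNNNGAA), the hypoxia element (ACGTG), the TATA box (TATAAA) and the NF-kB site, searched by its 10-letter consensus.
Mab21l3 (GRCm38.p6, chr3:101836174-101836473, minus strand): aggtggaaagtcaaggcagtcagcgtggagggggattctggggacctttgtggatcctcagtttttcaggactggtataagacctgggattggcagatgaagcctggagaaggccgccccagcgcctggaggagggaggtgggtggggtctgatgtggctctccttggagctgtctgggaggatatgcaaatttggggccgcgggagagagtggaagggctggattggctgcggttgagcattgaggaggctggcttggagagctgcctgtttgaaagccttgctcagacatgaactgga
Fndc4 (GRCm38.p6, chr5:31295886-31296185, minus strand): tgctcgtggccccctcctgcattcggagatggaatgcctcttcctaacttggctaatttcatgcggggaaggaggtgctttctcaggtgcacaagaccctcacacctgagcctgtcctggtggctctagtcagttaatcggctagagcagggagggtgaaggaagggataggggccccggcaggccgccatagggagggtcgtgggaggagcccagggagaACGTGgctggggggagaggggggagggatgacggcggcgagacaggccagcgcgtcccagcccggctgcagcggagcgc
H6pd (GRCm38.p6, chr4:150003187-150003486, minus strand): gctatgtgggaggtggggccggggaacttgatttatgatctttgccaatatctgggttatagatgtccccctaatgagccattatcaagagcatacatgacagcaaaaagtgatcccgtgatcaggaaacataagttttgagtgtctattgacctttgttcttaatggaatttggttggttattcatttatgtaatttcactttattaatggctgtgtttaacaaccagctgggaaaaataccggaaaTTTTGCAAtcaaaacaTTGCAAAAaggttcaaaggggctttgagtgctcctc
U90926 (GRCm38.p6, chr5:92215359-92215658, minus strand): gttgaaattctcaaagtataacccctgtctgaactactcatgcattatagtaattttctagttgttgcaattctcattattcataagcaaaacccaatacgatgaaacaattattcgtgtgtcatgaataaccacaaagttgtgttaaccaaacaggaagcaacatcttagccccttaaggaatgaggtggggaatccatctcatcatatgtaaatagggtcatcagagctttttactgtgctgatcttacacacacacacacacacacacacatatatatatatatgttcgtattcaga
Cym (GRCm38.p6, chr3:107221683-107221982, minus strand): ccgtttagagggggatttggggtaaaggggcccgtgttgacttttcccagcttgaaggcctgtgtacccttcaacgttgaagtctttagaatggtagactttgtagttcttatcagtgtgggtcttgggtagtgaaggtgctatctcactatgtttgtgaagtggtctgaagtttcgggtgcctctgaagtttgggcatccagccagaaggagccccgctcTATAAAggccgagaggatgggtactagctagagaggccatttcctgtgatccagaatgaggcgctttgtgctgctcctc
H6pd held 2 C/EBP matches, which do not overlap, at bases -2 to 5 and 14 to 21 from the start. Fndc4 held 1 hypoxia element at -29 to -25, and Cym 1 TATA box at -29 to -24. Mab21l3 and U90926 held no match in this window. Of all 32851 start windows in the table, 10.8% held the C/EBP letters, 19.6% the hypoxia element, 13.6% the TATA letters, 7.81% AP-1, 8.3% STAT and 4.51% the NF-kB site. No motif was shared by any 2 of the 5 genes.

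The first comparison set NTHi-treated cultures against untreated cultures of day 4. Mab21l3, Fndc4, H6pd and U90926 were higher with NTHi and Ndnf and Cym were lower, and for each of the 6 the ranges of the 7 treated and the 7 control libraries did not overlap. Of 16337 genes tested by edgeR's quasi-likelihood test, 40.5% were called at an adjusted p below 0.05, 20.1% higher and 20.4% lower. The choice of the 6 genes used this contrast, so nothing is read from their own calls or from their ranges lying apart. The share of all genes with ranges apart was not counted.

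Ndnf was at a lowest 20.7, a median 23.7 and a highest 29.9 CPM in NTHi cultures, against 271, 348 and 414 CPM in controls. The means were 24.5 ± 3.60 CPM with NTHi and 340 ± 58.5 CPM in controls (SD, n = 7 each), a log2 fold change of -3.79 ± 0.04 (standard error). The highest NTHi library thus stayed far under the lowest control library. Cym was at 8.02, 11.9 and 15.6 CPM (lowest, median, highest) in NTHi cultures, against 59.5, 85.5 and 106 CPM in controls. Its mean was 12.1 ± 2.72 CPM with NTHi and 83.5 ± 17.0 CPM in controls, a log2 fold change of -2.80 ± 0.11. Both genes were lower in every treated library, and Cym was still counted 299 to 586 times in a treated library.

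Mab21l3 was at 55.9, 61.9 and 63.9 CPM in NTHi cultures, against 1.99, 2.47 and 2.85 CPM in controls. The means of 60.5 ± 2.97 CPM with NTHi and 2.41 ± 0.305 CPM in controls gave a log2 fold change of 4.65 ± 0.07, and the ratio of the means was 25.1. Controls held 80 to 114 counts of this gene per library, and treated libraries 2143 to 2465. Fndc4 was at 67.5, 70.7 and 75.8 CPM in NTHi cultures, against 10.2, 12.2 and 13.3 CPM in controls, a log2 fold change of 2.56 ± 0.06. Its treated libraries lay close together, with an SD of 3.96% of their mean, against 8.91% in controls.

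H6pd had the highest count of the genes that were higher, with 22181 to 27854 counts in a treated and 5486 to 7908 in a control library. Its level was 603, 656 and 712 CPM in NTHi cultures, against 141, 159 and 187 CPM in controls, a log2 fold change of 2.03 ± 0.05 and a ratio of means of 4.10. U90926 was at 3.25, 10.9 and 15.3 CPM in NTHi cultures, against 0.0245, 0.0748 and 0.200 CPM in controls. The control libraries held 1 to 8 counts each, so the size of its log2 fold change, 6.65 ± 0.36, depends on few counts. Gm33381 and Gm42113, unnamed non-coding genes that overlap Mab21l3 and U90926 in the annotation, held 3 to 13 and 5 to 34 counts in a treated library, against 0 to 3 and 0 to 4 in a control library, and no label states whether the counting used strand.

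**Figure D1:**
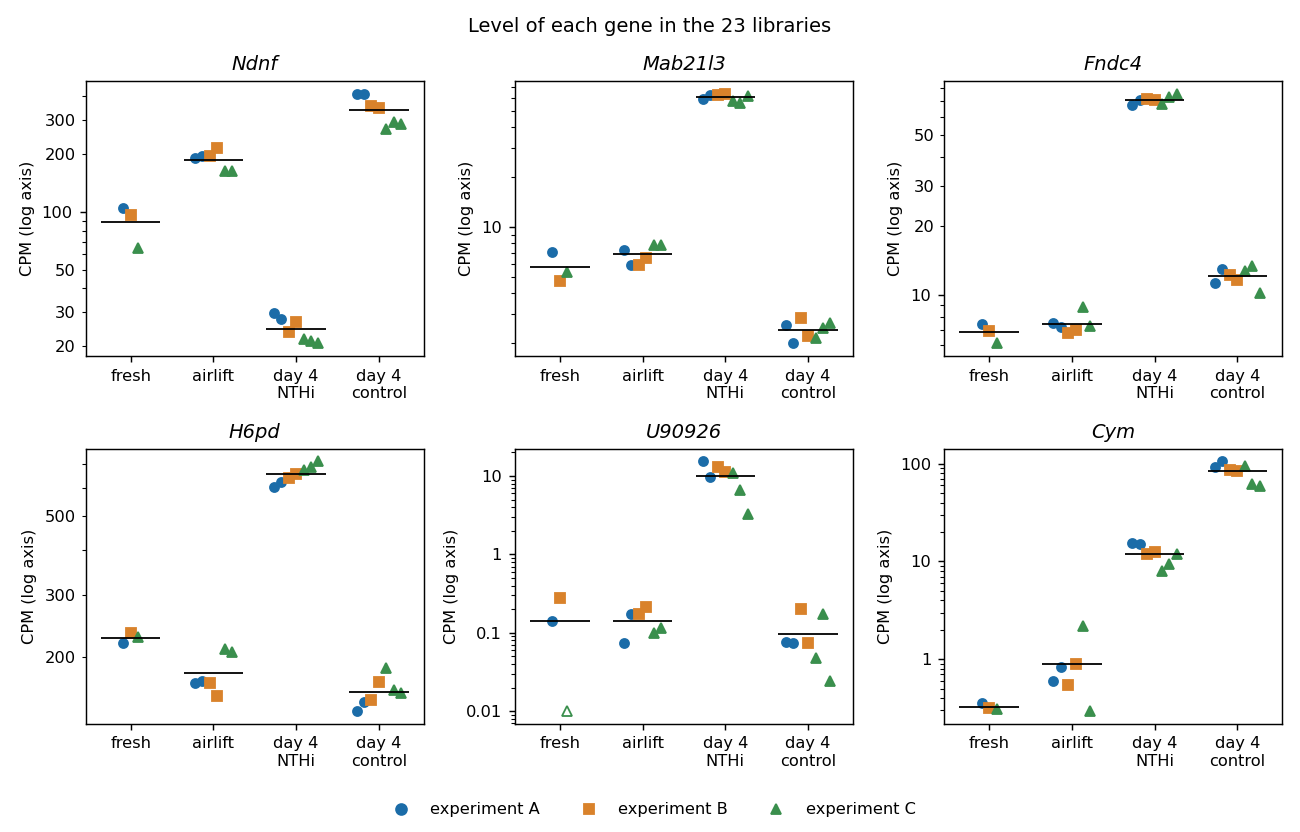
CPM of each gene on a log axis in the 23 libraries, with 1 point per library coloured by experiment and a line at the group mean; the open triangle for U90926 marks a fresh library with no count, drawn at the foot of the axis. The treated libraries lie apart from the controls in every panel, below them for Ndnf and Cym and above them for the other genes.

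The NTHi effect was then taken within each experiment. For 5 of the 6 genes the log2 fold changes of experiments A, B and C lay within 0.06 to 0.18 of each other. The genes were chosen for this evenness. The median range over the same experiments was 0.22 for all 16337 genes tested and 0.20 for the called genes. It was 0.71 for the 296 called genes changed by 2 or more on the log2 scale. Ndnf gave -3.84 ± 0.08, -3.80 ± 0.08 and -3.75 ± 0.06 in experiments A, B and C. H6pd gave 2.07 ± 0.09, 2.01 ± 0.09 and 2.02 ± 0.08 in the same order. The ranges were 0.07 for Fndc4, 0.15 for Mab21l3 and 0.18 for Cym, whose changes were -2.70, -2.80 and -2.88. U90926 had the widest range, with large standard errors and only 1 to 8 counts in a control library. Its changes were 7.30 ± 0.73, 6.43 ± 0.67 and 6.36 ± 0.60, a range of 0.94. Its 3 treated libraries of experiment C were at 10.9, 6.68 and 3.25 CPM. Whether its response differed between experiments was not tested.

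An even ratio did not mean an even level. Ndnf was lower in experiment C than in A in each group, at 73.7% of the level of experiment A in NTHi cultures, 68.8% in day 4 controls, 84.3% at airlift and 62.1% in fresh cells. In experiment C its mean was 21.2 CPM with NTHi and 284 CPM in controls, and in experiment A 28.8 and 413 CPM, so that controls stood 13.4 and 14.3 times above treated cultures. Cym was at 64.1% of experiment A in NTHi cultures, 72.5% in controls and 86.4% in fresh cells, but at 172% at airlift, where the libraries of experiment C stood at 2.18 and 0.292 CPM. Its ratio of control to NTHi means at day 4 was 7.34 in experiment C and 6.49 in A. H6pd was higher in experiment C in each group, at 113% of experiment A in NTHi cultures, 117% in controls, 123% at airlift and 104% in fresh cells.

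**Figure D2:**
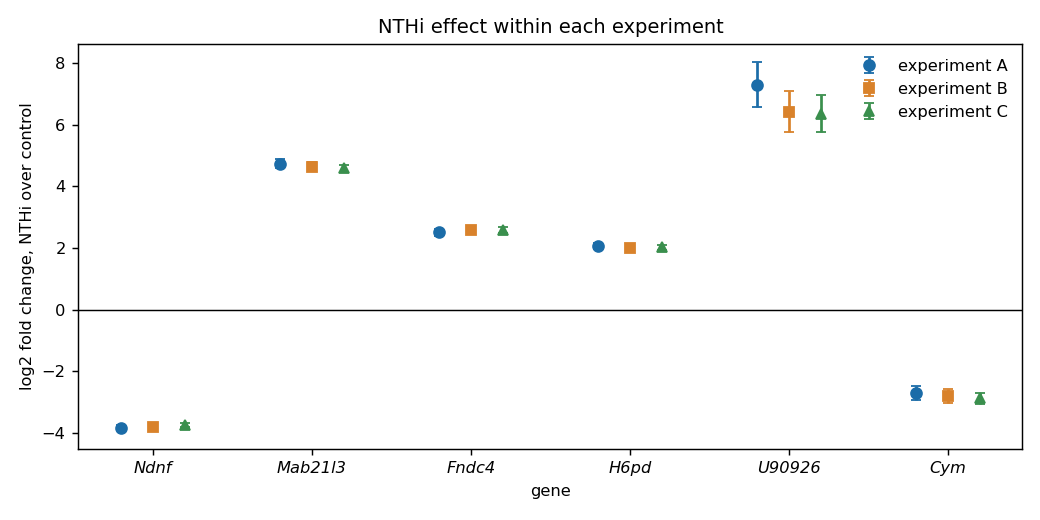
Log2 fold change of NTHi over control within experiments A, B and C, with bars of 1 standard error. The points of a gene lie nearly level for all but U90926, where they run between 6.36 and 7.30 with standard errors of 0.60 to 0.73.

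The second comparison followed the genes through untreated culture, from isolation to airlift and day 4. The fits used the 16 untreated libraries with experiment as a term and 18302 genes tested. U90926 did not pass the filter on low counts, which left 5 of the 6 genes. It had 0 to 8 counts per library in fresh cells, 3 to 8 at airlift and 1 to 8 in day 4 controls, and the fresh library of experiment C had no count, which allows up to 0.102 CPM (3 counts).

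From isolation to airlift Ndnf rose and H6pd fell. Ndnf was at 191.9, 195, 196, 215, 163 and 163 CPM in the airlift libraries, against 105, 96.3 and 65.0 CPM in the fresh ones, a log2 change of 1.09 ± 0.08 (adjusted p = 2.6e-10 by edgeR's quasi-likelihood F-test, Benjamini-Hochberg over all genes). Every airlift library lay above the fresh libraries. H6pd was at 156 to 211 CPM at airlift, against 219.6 to 234 CPM in fresh cells, a log2 change of -0.35 ± 0.07 (adjusted p = 0.00023). This fall is relative to the bulk of genes: scaled by library totals alone, where the median of all genes moved to 0.49, H6pd stood at 0.13. Mab21l3 and Fndc4 were not called, with differences of 0.25 ± 0.15 (adjusted p = 0.14) and 0.11 ± 0.11 (adjusted p = 0.37), and their ranges overlapped. Mab21l3 was called higher without the fresh library of experiment A, at 0.48. Both were called higher under library totals, at 0.74 and 0.60.

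Cym was at 0.599, 0.834, 0.546, 0.897, 2.18 and 0.292 CPM at airlift, against 0.355, 0.313 and 0.306 CPM in fresh cells, with 10 to 88 counts per library at airlift and 9 or 10 in fresh cells. The ranges overlapped, since the lowest airlift library, at 0.292 CPM, lay under the fresh libraries. The lowest and the highest airlift libraries were both of experiment C. The log2 change of 1.46 ± 0.63 had an adjusted p of 0.044, and leaving out the airlift replicate 1 of experiment C ended the call, at 0.90. It was also lost, at 1.45 to 1.48, without any one of the 3 fresh libraries, the airlift replicate 2 of experiment B or the control replicate 1 of experiment B. In all, 3 of the 5 genes tested were called, 2 higher and 1 lower, in a comparison in which 74.6% of all genes were called, 37.9% higher and 36.7% lower.

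From airlift to day 4 the largest step was that of Cym. Its level was 83.5 ± 17.0 CPM in day 4 controls (SD, n = 7) and 0.891 ± 0.667 CPM at airlift (SD, n = 6), a log2 change of 6.51 ± 0.25 (adjusted p = 5.6e-13), and the lowest control library stood at 59.5 CPM against a highest airlift library at 2.18 CPM. Ndnf rose further, with 271 to 414 CPM in controls against 163 to 215 CPM at airlift, a log2 change of 0.87 ± 0.06 (adjusted p = 5.4e-10). Fndc4 rose by 0.67 ± 0.08 (adjusted p = 2.2e-06), with 10.2 to 13.3 CPM in controls against 6.8 to 8.81 CPM at airlift. Mab21l3 moved the other way, with 1.99 to 2.85 CPM in controls against 5.91 to 7.85 CPM at airlift, a log2 change of -1.54 ± 0.12 (adjusted p = 5.6e-09). H6pd changed by -0.21 ± 0.06 (adjusted p = 0.0051) with overlapping ranges, and its call was lost without experiment A, at -0.18, without experiment C, at -0.14, or without the airlift libraries of experiment C, an alternative chosen after seeing the data, at -0.12.

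All 5 were thus called, 3 higher and 2 lower, beside 54.5% of all genes, 26.9% higher and 27.7% lower. The control libraries of this step also entered the contrast that chose the genes, so the directions of the untreated and the NTHi steps are not independent. Against fresh cells, day 4 controls were higher for Ndnf (1.96 ± 0.08), Fndc4 (0.78 ± 0.11) and Cym (7.97 ± 0.41) and lower for Mab21l3 (-1.29 ± 0.15) and H6pd (-0.56 ± 0.07). The 5 were called there beside 76.6% of all genes, with adjusted p-values of 1e-13 to 3.4e-06 in the edgeR test, and under library totals H6pd was not called, at -0.08, while Fndc4 stood at 1.25 and Mab21l3 at -0.82. The summed level of 8 mesenchymal markers was also highest at day 4, at 17.9 to 31.8 CPM in fresh cells, 29.5 to 79.9 CPM at airlift and 201 to 503 CPM in day 4 controls, and was 192 to 534 CPM with NTHi. The macrophage and monocyte markers summed to 18680 to 25040 CPM in fresh cells, 3164 to 3657 CPM at airlift and 5974 to 12720 CPM in day 4 controls. The 9 lymphocyte markers summed to 214 to 253 CPM, 75.0 to 88.3 CPM and 61.8 to 117 CPM in the same order, and the 7 endothelial markers to 71.2 to 86.4 CPM, 17.2 to 33.7 CPM and 22.2 to 40.8 CPM. With NTHi the lymphocyte markers summed to 19.8 to 59.5 CPM and the endothelial markers to 10.3 to 17.4 CPM, both under the day 4 controls. The part of these cell types in the untreated changes or in the NTHi differences was not tested.

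**Figure D3:**
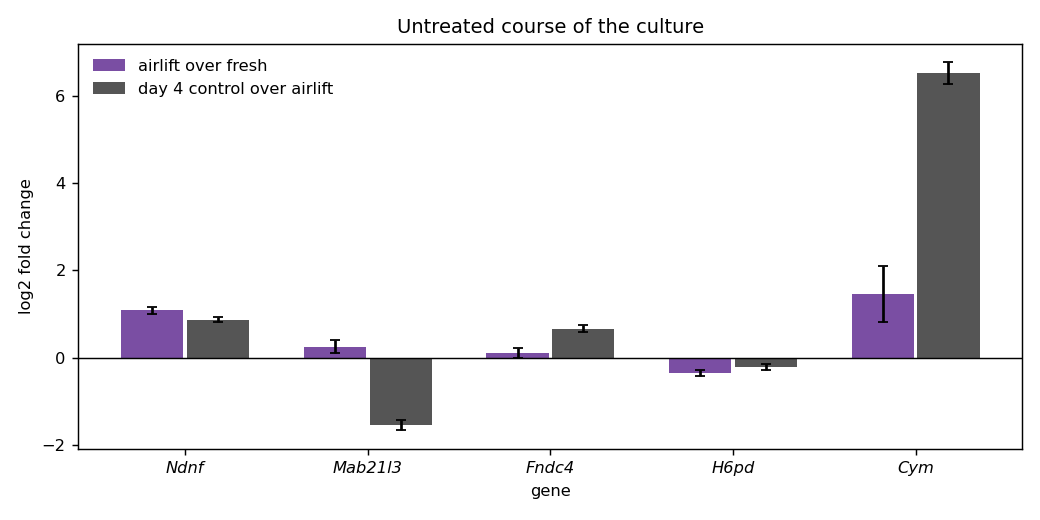
Log2 fold change with 1 standard error for airlift over fresh cells and for day 4 control over airlift, for the 5 genes tested. Cym has the tallest bar, 6.51 at the step to day 4, and Mab21l3 is the gene with the deepest one, -1.54.

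Placed in order over the 4 groups, NTHi cultures were at one end for 5 genes. The choice by the NTHi difference favours such a place, so nothing is read from it. The share of all genes with this trait was not counted. Ndnf ran from 24.5 CPM with NTHi through 88.6 CPM in fresh cells and 187 CPM at airlift to 340 CPM in day 4 controls, and no neighbouring ranges overlapped. NTHi cultures were thus also 3.62 times below fresh cells. Mab21l3 had its highest level with NTHi, 60.5 CPM, then 6.90 CPM at airlift and 5.75 CPM in fresh cells, whose ranges overlapped, and 2.41 CPM in controls. Fndc4 followed NTHi (71.0 CPM), controls (12.0 CPM), airlift (7.47 CPM) and fresh cells (6.84 CPM), with overlap of the last pair. H6pd followed NTHi (656 CPM), fresh cells (227 CPM), airlift (181 CPM) and controls (160 CPM), with overlap of the last pair. For U90926 the NTHi mean of 9.98 CPM stood above the other means of 0.0959 to 0.141 CPM, whose ranges overlapped. Cym differed in order: NTHi cultures, at 12.1 CPM, lay under controls but 13.5 times above airlift and 37.1 times above fresh cells, with no overlap.

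Genes around H6pd in metabolism were lower more often than higher. The list of 16 held genes of the pentose phosphate pathway and of sugar phosphate handling in the reticulum, Hsd11b1, the glucocorticoid receptor gene Nr3c1, and Me1 and Idh1, whose enzymes make NADPH in the cytosol. Of these 16, 1 rose and 8 fell with NTHi, beside the 20.1% and 20.4% of all genes, with a median log2 change of -0.14 against -0.00013 over all genes tested. The gene that rose was Slc37a4, the carrier that brings glucose-6-phosphate into the reticulum, with 19.9 ± 1.94 CPM in NTHi cultures and 14.95 ± 1.12 CPM in controls (log2 change 0.41 ± 0.06, edgeR adjusted p = 9.4e-05). Hsd11b1, the reductase that draws on the NADPH made by H6pd, was at 5.67 ± 1.98 CPM with NTHi and 13.5 ± 4.08 CPM in controls, and fell by 1.26 ± 0.24 (adjusted p = 0.00071). Taldo1, a cytosolic enzyme that interconverts sugar phosphates, fell by 0.42 ± 0.11, and Shpk, a sedoheptulose kinase, by 0.38 ± 0.10. G6pdx, the cytosolic enzyme of the same first step as H6pd, was at 132 ± 17.6 CPM with NTHi and 156 ± 22.5 CPM in controls, and fell by 0.24 ± 0.08 (adjusted p = 0.018); it was named after its value was seen.

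Relatives of Fndc4 and its reported receptor gave 5 higher and none lower of 7 tested, beside 20.1% and 20.4% of all genes, with a median of 0.34. DESeq2 called 1 of the list lower. Fndc10 rose by 0.96 ± 0.08 to 12.7 ± 1.46 CPM with NTHi, against 6.49 ± 0.637 CPM in controls (adjusted p = 1.3e-07). Fndc3b rose by 0.41 ± 0.06 and Fndc7 by 0.80 ± 0.17, while Fndc5, which encodes the irisin precursor, differed by -0.38 ± 0.28 at under 1 CPM and was not called; it is outside the naming rule. Adgrf5, a receptor reported for the shed part of Fndc4, was at 231 ± 13.8 CPM with NTHi and 183 ± 13.7 CPM in controls, a log2 change of 0.34 ± 0.04 (adjusted p = 2.2e-06).

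Of 8 tested genes of the Mab-21 and cGAS-like family, 1 rose and 1 fell, beside 20.1% and 20.4% of all genes, with a median of -0.05. Itpripl2 rose by 0.51 ± 0.05 and Mb21d2 fell by 0.46 ± 0.11, and under library totals 2 were called lower. Mab21l4, the family member with 251 ± 19.4 CPM with NTHi and 277 ± 33.3 CPM in controls, differed by -0.14 ± 0.07 (adjusted p = 0.12). Cgas, the cytosolic DNA sensor, differed by -0.23 ± 0.13 (adjusted p = 0.17). Mab21l1, Mab21l2 and Tmem102 were too low to be tested.

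Of 13 tested neurotrophic factors and receptors, 2 rose and 3 fell, beside 20.1% and 20.4% of all genes, with a median of -0.19. Gdnf, a survival factor of neurons, fell by 1.5 ± 0.11 to 6.73 ± 1.20 CPM with NTHi, against 19.1 ± 3.70 CPM in controls, and its co-receptor Gfra1 fell by 1.57 ± 0.13. Ngfr, the low-affinity neurotrophin receptor and a marker of basal cells, fell by 1.95 ± 0.18. Nrtn, of the same family as Gdnf, rose by 0.52 ± 0.16, and 1 gene of the list was called higher under library totals in place of 2. Among 6 tested pepsin-like aspartic proteases, relatives of Cym, 1 rose and 2 fell, beside the same shares of all genes, with a median of 0.09. Napsa, the protease that processes surfactant protein B, fell by 1.53 ± 0.09 to 33.2 ± 6.58 CPM with NTHi, against 95.3 ± 16.5 CPM in controls, and Ctsd, of lysosomes, by 0.94 ± 0.17. Bace2 rose by 0.30 ± 0.07, and Ctse differed by 0.21 ± 0.08 (adjusted p = 0.056), while DESeq2 called 2 of the list higher. Pgc, Pga5 and Ren1 were too low to be tested. Of the 15 macrophage markers above, 10 fell and 2 rose with NTHi, beside 20.4% and 20.1% of all genes. The part of such cells in the falls of Hsd11b1 and Ctsd was not tested.

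**Figure D4:**
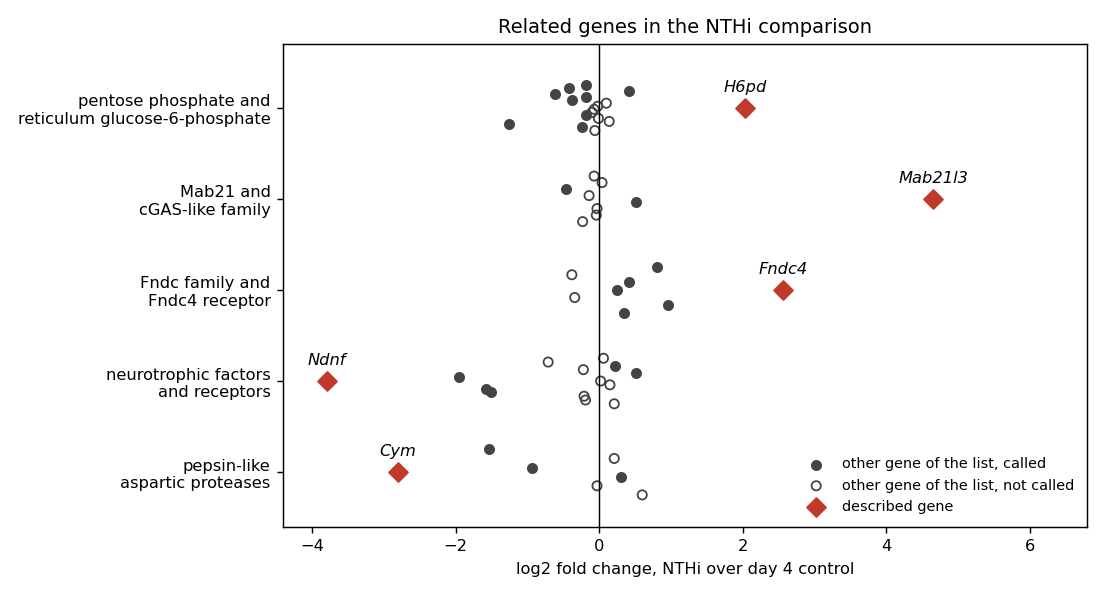
Log2 fold change of NTHi over day 4 control for the tested genes of 5 lists, filled where the edgeR test called the gene and open where it did not, with the described gene as a diamond; the first list also holds Nr3c1, Me1 and Idh1. H6pd, Mab21l3 and Fndc4 lie to the right of the related genes, and Ndnf and Cym to the left. The described genes were chosen by their difference in this contrast and the others were not, so nothing is read from these places.

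The nearest tested genes on the chromosome showed mixed changes. Tnip3, a binding partner of the NF-kB inhibitor A20, is the tested gene before Ndnf on chromosome 6, and it rose by 1.47 ± 0.08 to 549 ± 60.7 CPM with NTHi, against 198.5 ± 32.4 CPM in controls, while Ndnf was lower. Gckr, the regulator of glucokinase, follows Fndc4 on chromosome 5 and rose by 3.46 ± 0.18 to 5.47 ± 0.684 CPM with NTHi, against 0.493 ± 0.162 CPM in controls (edgeR adjusted p = 1.1e-09). Ift172, before Fndc4, differed by 0.05 ± 0.06. Beside H6pd on chromosome 4, Spsb1 rose by 0.30 ± 0.05 and Gpr157 fell by 0.68 ± 0.13. The neighbours of U90926 were Uso1, at 0.18 ± 0.04, and Ppef2, at -0.11 ± 0.19, and Slc22a15, next to Mab21l3, differed by 0.17 ± 0.09. Next to Cym, Lamtor5 fell by 0.18 ± 0.04, and AI504432 differed by -0.47 ± 0.21 (adjusted p = 0.091).

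Over the 23 libraries, the level of each gene was most like that of the following genes, by Pearson's r of log2 CPM among 11625 genes. These are descriptions with no p, since the libraries share groups and experiments. The 14 day 4 libraries among them also gave the contrast by which the described genes were chosen. That choice favours a high r with other genes that differ strongly with NTHi, so none is read as a specific partner. Whether any likeness goes beyond a shared NTHi difference was not tested. Mab21l3 ran closest to Neurl3 (r = 0.984), Duox2 (0.977) and Ly6i (0.972). H6pd ran closest to Noxo1 (0.991), Cp (0.990) and Duoxa2 (0.981). Duox2 and its maturation factor Duoxa2 are parts of the hydrogen peroxide system of the epithelial surface, and Cp is the ferroxidase ceruloplasmin. Over the 14 day 4 libraries alone, Duox2 was not among the 3 genes closest to Mab21l3, nor Duoxa2 among those of H6pd. Fndc4 ran closest to Csf1 (0.994), a growth factor of macrophages, Dennd2b (0.987) and Micall2 (0.982). U90926 ran closest to Csta2 (0.986), Cxcl16 (0.975) and Cd14 (0.968), a co-receptor for endotoxin and 1 of the 15 macrophage and monocyte markers. Of the genes lower with NTHi, Ndnf ran closest to Entrep1 (0.956), Phospho1 (0.952) and Igf1 (0.949), and Cym to Rgs5 (0.980), Fbln5 (0.976) and Mfsd2b (0.971). Rgs5 is known from pericytes and Fbln5 from elastic fibres. Of the 8 mesenchymal markers, 2 were called higher and 2 lower with NTHi, beside 20.1% and 20.4% of all genes. Whether such cells contribute to the level of Cym was not tested. Rgs5 averaged 2.79 CPM with NTHi, 11.1 CPM in controls, 0.128 CPM at airlift and 0.116 CPM in fresh cells, the same order as Cym.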

How the data were processed

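The authors deposited 1 table of raw counts per gene for each of experiments A, B and C, whole numbers per library that were not normalised. Per the submitters' processing notes, STAR, DESeq2 and the GRCm39 build were used, with no version listed. The counting program was not given in the sources used here, nor was its strand setting. Of 41098 lines in a table, 25 pieces of broken lines were left out (at most 0.0822% of a library's counts), with 6 genes. Among counts below 20, 69.3% to 74.9% were even, and whether both reads of a pair were counted was not stated. Replicates differed by more than counting noise (chi-square per gene 2.97 or more in 13 pairs).

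Fits used edgeR 4.0.16 (R 4.3.3): filterByExpr with a minimum count of 10, TMM, group and experiment as terms, the quasi-likelihood F-test and Benjamini-Hochberg adjustment over all genes tested, tested on simulated counts. Standard errors were taken as the fold change (log2) over the root of its F value. CPM use TMM totals of all 23 libraries. The genes and lists were chosen with earlier results of these data known. Named by rule were the 6 genes, up to 4 genes with the smallest p of each list, the nearest tested gene on each side in the RefSeq table (GRCm38.p6, used for order only; not all are reported here), and the 3 genes with the highest Pearson's r (log2 CPM with a prior count of 2, average log2 CPM of at least 2). Alternatives were DESeq2 1.42.0, its size factors, other filters, scalings and covariates, halved counts, replicate as a block, 1 joint fit of the 23 libraries, and leaving out libraries or experiments. The floor for a library with no count covers counting error only, while the ± values include the spread between libraries.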

Additional observations from a re-analysis of the deposited data

Results flagged for a closer look

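Among 18 sets of libraries (6 genes in the airlift, NTHi and day 4 control groups), 2 held a library apart from the others by Dixon's criterion, which chance meets in about 1 set of 20. Both were replicate 1 of experiment C at airlift. Cym was at 2.18 CPM there and at most 0.897 CPM in the other airlift libraries. Fndc4 was at 8.81 CPM there and at most 7.54 CPM in the others.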

How the results depend on the processing

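The NTHi log2 fold changes of the 6 genes kept their direction under all 26 alternatives and moved by less than the SD between libraries, with ranges of -3.85 to -3.77 for Ndnf, 4.59 to 4.69 for Mab21l3, 2.50 to 2.58 for Fndc4, 1.97 to 2.06 for H6pd, 6.4 to 6.93 for U90926 and -2.86 to -2.71 for Cym. Airlift against fresh cells was less stable. Under library totals alone H6pd turned to 0.13, and without experiment C Fndc4 turned to -0.03; neither cause was tested. Cym was also not called with DESeq2 size factors (1.41), with halved counts (1.51), without experiment A (1.68) or B (1.57), or without any one of 6 libraries, and its value ran from 0.90 to 1.94 over 27 alternatives. Mab21l3 was called higher without the fresh library of experiment A, at 0.48, or without that experiment, at 0.47. Scaled by library totals, the NTHi comparison called 2282 genes higher and 4416 lower in place of 3281 and 3338. The replicate numbers did not pair libraries: deviations of same-numbered NTHi and control libraries correlated at -0.346 to 0.0731. With the replicate block 5982 genes were called for NTHi and 8768 for day 4 control against airlift, in place of 6619 and 9982. In day 4 control against airlift no call of the 5 genes tested changed. No such block could be fitted for comparisons with fresh cells, which carry no number. Of the 3 genes most like each of the 6, only 1 of those of U90926 and none of the others was named again over the 14 day 4 libraries alone. Depth limits U90926 most, with at most 8 counts in an untreated library.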
